A study of Mus musculus with 8 samples.

Results

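The comparison described here sets CD8α+ against CD8α- conventional dendritic cells sorted from the spleens of wild type C57BL/6 mice. It rests on 4 of the 8 arrays of the series, 2 for each subset. The other 4 arrays hold the same subsets from RAG2-/- mice, which lack mature T and B lymphocytes. The labels give all mice as untreated females of 10 weeks (the design text says 8-10 weeks), and give no transgene or reporter for either genotype. They do not say that replicates came from separate mice, so the spread between them may be technical. Affymetrix mouse arrays measured RNA, and a level below is the log2 value of a gene's brightest probe set as deposited. A gene entered the comparison where a probe set that names it alone was at log2 5 or above on at least 2 of the 4 wild type arrays, which held for 8482 of the 18193 genes on the array. Pairs of levels are given for the 2 CD8α+ arrays first and then the 2 CD8α- arrays. A difference is the CD8α+ mean minus the CD8α- mean on the log2 scale, with its standard error (SE) from limma, and genes count as called below an adjusted p of 0.05.

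Conventional dendritic cells take up antigen and present it to T cells. The CD8α+ subset, which depends on the transcription factors Irf8 and Batf3, is known for engulfing dead cells and presenting their antigens on MHC class I (cross-presentation). The CD8α- subset, which depends on Irf4 and on Notch2 signalling, is known for presenting antigen on MHC class II to CD4 T cells. The transcripts of the sort marker followed the labels. Cd8a itself was at 11.73 and 11.94 on the CD8α+ arrays and at 5.80 and 6.10 on the CD8α- arrays. Cd4 was at 2.78 and 2.76 against 8.08 and 7.83. Cd8b1, the β chain carried by T cells, was below 5 on all 4 arrays, as were the T cell receptor complex genes Cd3e and Cd3g.

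Replicate arrays correlated across genes at r = 0.981 for CD8α+ and 0.986 for CD8α- cells, and arrays of different subsets at 0.864 to 0.887. Of 11 conventional dendritic cell markers, such as Flt3, Zbtb46 and Itgax, 0 were higher and 2 lower in CD8α+ cells, and each was bright enough to test. Markers of other cells varied by list. All 12 stromal and endothelial markers, 11 of 12 neutrophil, 9 of 10 platelet, 8 of 10 erythroid, 9 of 12 NK cell, 11 of 15 T cell and 9 of 15 red pulp macrophage markers were below 5 on all 4 arrays, but only 6 of 13 monocyte, 7 of 20 B and plasma cell and 4 of 12 plasmacytoid dendritic cell markers were. The B cell list reached a summed log2 level of 14.2 and 14.1 in CD8α+ and 14.5 and 14.2 in CD8α- cells, led by Ighm, while Cd79a, Pax5 and Ebf1 were below 5. The monocyte list summed to 14.2 and 14.4 against 14.1 and 14.6 and the red pulp macrophage list to 12.2 and 12.7 against 12.5 and 12.9, so these groups overlapped. The sums of 3 lists did not overlap between the subsets. The plasmacytoid list summed to 14.85 and 15.00 in CD8α+ and 12.69 and 12.96 in CD8α- cells, led by Mpeg1, with Siglech below 5 on all 4 arrays. Mpeg1 alone had means of 14.79 and 12.23, so these sums mostly followed 1 gene. Of 7 members tested 2 were higher and 5 not called, among the latter Spib with a difference of -1.84. The NK cell list, led by Klrd1, summed to 11.4 and 10.5 against 13.1 and 13.1, with Ncr1 and Eomes below 5, and the erythroid list, led by the transferrin receptor gene Tfrc, to 9.78 and 9.84 against 11.5 and 11.6, with Hba-a1 and Klf1 below 5. The part of such cells in the results below was not tested. The β-actin control probe sets, which compare the 3′ and 5′ ends of one transcript as a sign of RNA integrity, differed by 1.55 and 1.42 in CD8α+ cells and by 2.08 and 2.14 in CD8α- cells, so the groups did not overlap. The same gap for Gapdh, at 5.25 and 3.44 against 3.67 and 4.67, did overlap. The part of the β-actin gap in the results below was not tested. Of the RAG2-/- arrays, both with replicate number 2 went against the label of female mice. Xist, the transcript of the inactive X chromosome, was at 2.78 and 2.23 on them and at 13.3 to 14.2 on the other 6, and the Y-linked gene Eif2s3y at 10.1 and 10.0 against at most 3.54. These arrays enter the wild type comparison only through the estimate of the spread. Without both, that estimate rests on the wild type arrays alone, whose fit called 673 genes higher and 606 lower.

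With all arrays, 762 genes (8.98% of those tested) were higher in wild type CD8α+ cells and 648 (7.64%) were lower. Counts of called genes in the lists below are to be read beside these 2 shares. At an unadjusted p under 0.05 there were 2513 genes. The counts depended on each wild type array: leaving out replicate 1 or 2 of the CD8α- cells gave 328 and 304 or 398 and 315 genes, and leaving out replicate 1 or 2 of the CD8α+ cells gave 503 and 419 or 357 and 363. The call held in each of these 4 fits for 281 higher and 247 lower genes, which are the calls described as held below. The median difference over all genes was 0.015. In 127 genes both CD8α+ arrays were below 5, and 104 of these were called lower. In 139 genes both CD8α- arrays were below 5, and 119 of these were called higher. The filter required both arrays of the other subset to be at 5 or above in these genes, so their direction was fixed in advance. For such genes the fold change is a lower bound (at least N-fold) that takes 5 as the lower level. Counted this way, 582 of the higher and 526 of the lower genes differed at least 2-fold, 224 and 209 at least 4-fold, and 43 and 30 at least 16-fold. In bulk RNA, fewer cells of a type and less RNA per cell cannot be told apart, and this holds for each difference below. Where a called gene had another tested probe set, that probe set differed in the same direction for 488 of 506 genes (96.4%).

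**Figure D1:**
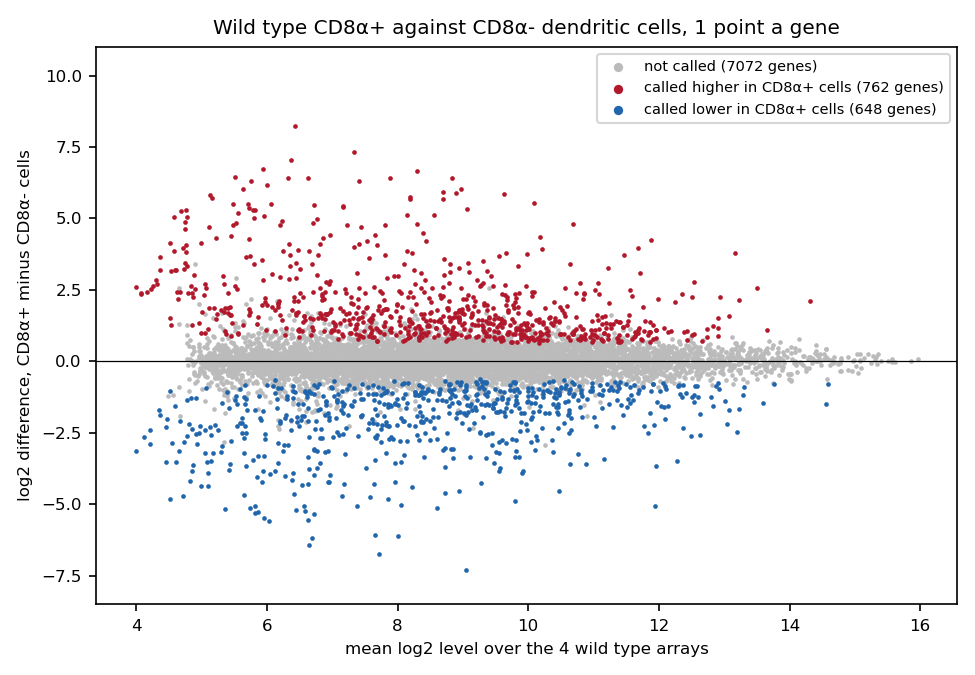
Difference between wild type CD8α+ and CD8α- cells (log2, vertical axis) against the mean log2 level over the 4 arrays (horizontal axis), 1 point for each of the 8482 genes. The 762 genes called higher (red) and 648 called lower (blue) span the whole range of levels, and the genes at the far right are mostly not called.

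The 30 held genes with the largest difference on each side ranged over enzymes, adaptors, inhibitors and adhesion molecules. Pdia5, a protein disulfide isomerase of the endoplasmic reticulum, was at 12.37 and 12.72 in CD8α+ cells and 6.56 and 6.85 in CD8α- cells, a difference of 5.84 (SE 0.42, adjusted p = 0.000266). Hk3, a hexokinase of myeloid cells, stood at 11.05 ± 0.17 in CD8α+ and 5.31 ± 0.44 in CD8α- cells (SD, n = 2) (difference 5.74, SE 0.41). Serpinf1, which encodes the secreted pigment epithelium-derived factor, was at least 14.1-fold higher in CD8α+ cells, with 8.82 ± 0.26 in CD8α+ and 3.29 ± 0.14 in CD8α- cells (SD, n = 2). The groups of each of these genes had to lie apart for it to be chosen. Sh3pxd2b, an adaptor of podosomes, was at least 29.7-fold higher (9.49 and 10.29 against 4.44 and 4.44), although its second probe set differed by 2.29. The protease inhibitor gene Ctla2b had 9.46 ± 0.01 in CD8α+ and 3.98 ± 0.26 in CD8α- cells (SD, n = 2). Cadm1, an adhesion molecule by which the CD8α+ lineage is often recognised, was at 11.68 and 11.77 against 5.81 and 6.97. Also among the 30, and below 5 on both CD8α- arrays, were the serpin gene Serpinb8 (at least 11.03-fold higher), the G protein subunit gene Gng12 (at least 9.47-fold), the phosphatase gene Ppef2 (at least 10.5-fold), the ectoenzyme gene Bst1 (at least 5.32-fold) and the ubiquitin ligase subunit gene Fbxo4 (at least 11.04-fold). Second probe sets differed by 3.32 for Serpinb8 and 4.16 for Gng12.

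On the other side, Tgm2, which encodes tissue transglutaminase, was bright in CD8α- cells (14.40 and 14.54) and lower in CD8α+ cells (9.75 and 9.05), a difference of -5.07 (SE 0.32, adjusted p = 0.000175). Sucnr1, the receptor for the metabolite succinate, was at 6.62 and 5.45 against 11.37 and 10.95 (-5.12, SE 0.45). Bex6, a small protein gene of little-known function, was at 8.82 and 7.58 against 12.75 and 12.73. Abcb1a, the drug efflux pump P-glycoprotein, was at 6.47 and 6.35 against 10.73 and 11.33 (-4.62, SE 0.26). No array of one subset overlapped the other in these 4 genes, which was a condition of their choice. Over all 8482 genes tested, this held for 5184. The scaffold gene Cass4 was at least 18.4-fold lower, Scel, which encodes the cornified-envelope protein sciellin, at least 22.8-fold, and the sodium channel gene Scn3a at least 9.90-fold. Npl, a sialic acid lyase gene, was at 4.38 and 5.33 against 10.10 and 9.72. Dkk2, a secreted Wnt antagonist, was at least 7.91-fold lower in wild type CD8α+ cells (3.79 and 2.81 against 7.83 and 8.13). Its difference between the RAG2-/- subsets was -0.70, but the limma interaction with genotype was not called (adjusted p = 0.129).

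**Figure D2:**
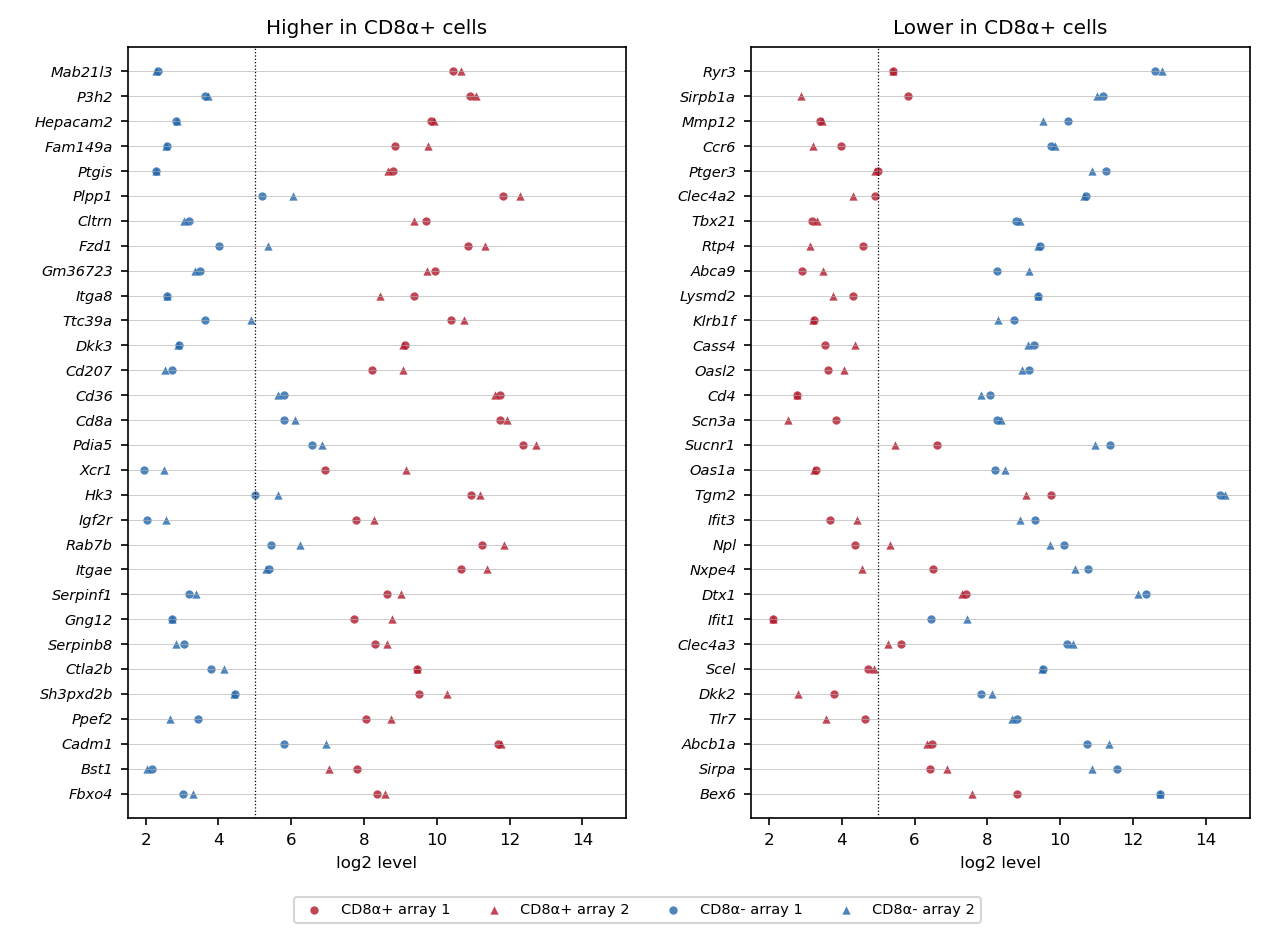
Log2 level on each of the 4 wild type arrays (horizontal axis) for the 30 genes with the largest held rise (left) and fall (right) in CD8α+ cells; red marks are CD8α+ and blue marks CD8α- arrays, and the dotted line is level 5. Red and blue marks had to lie apart for a gene to be chosen, and many rows have one subset left of the dotted line.

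Type I interferon-stimulated genes encode antiviral proteins that are switched on when interferon binds its receptor. Of 34 such genes on the array 30 were tested, and 2 were higher and 17 lower in CD8α+ cells. Of the lower genes 14 were held and of the higher ones 0. Their median difference was -1.37, against 0.015 over all genes. In 8 of the 30 both CD8α+ arrays were below 5, so the filter fixed their direction in advance. The count of lower genes, the median and the promoter counts below include such genes. The promoters of the lower genes can be shown beside their levels. The core of the interferon-stimulated response element, searched as GAAANNGAAA on both strands of RefSeq promoters (GRCm38.p6, 250 bases before to 50 after the start), was present in 8 of the 12 lower genes of the list that had a promoter in the table, and in 4 of the 9 other tested list genes that had one. The 250 bases before the start are printed 5′ to 3′ for the 4 lower genes of the list with the largest held fall whose motif lies there, and for the 2 genes with the largest held rise in CD8α+ cells that carry the motif, with each match in capitals (a run that starts with TTTC is the same motif on the other strand).
Oas1a: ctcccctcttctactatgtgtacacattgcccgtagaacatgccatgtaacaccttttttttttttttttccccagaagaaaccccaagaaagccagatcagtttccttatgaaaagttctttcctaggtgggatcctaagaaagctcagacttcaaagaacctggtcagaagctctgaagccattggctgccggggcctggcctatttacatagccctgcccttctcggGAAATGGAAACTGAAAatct
Ifit3: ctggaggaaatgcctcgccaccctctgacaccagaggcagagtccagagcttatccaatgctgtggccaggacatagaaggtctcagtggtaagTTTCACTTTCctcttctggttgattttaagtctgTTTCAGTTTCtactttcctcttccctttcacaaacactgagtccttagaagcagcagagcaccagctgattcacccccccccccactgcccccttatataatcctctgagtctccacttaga
Ifit1: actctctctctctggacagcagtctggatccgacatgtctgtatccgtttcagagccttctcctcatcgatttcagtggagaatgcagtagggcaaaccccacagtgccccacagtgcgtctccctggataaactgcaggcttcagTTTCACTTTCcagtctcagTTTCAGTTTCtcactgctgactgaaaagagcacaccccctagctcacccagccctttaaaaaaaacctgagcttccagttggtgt
Ddx60: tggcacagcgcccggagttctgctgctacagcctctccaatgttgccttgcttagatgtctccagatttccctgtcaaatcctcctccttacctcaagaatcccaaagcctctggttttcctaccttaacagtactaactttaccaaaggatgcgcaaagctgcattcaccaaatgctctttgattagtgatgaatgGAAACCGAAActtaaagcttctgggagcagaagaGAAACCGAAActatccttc
Fcrla: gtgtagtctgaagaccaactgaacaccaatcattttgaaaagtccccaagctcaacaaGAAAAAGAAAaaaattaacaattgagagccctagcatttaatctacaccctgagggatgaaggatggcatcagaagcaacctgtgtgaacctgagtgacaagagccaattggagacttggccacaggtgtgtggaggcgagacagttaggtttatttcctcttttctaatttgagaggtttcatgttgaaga
Aif1: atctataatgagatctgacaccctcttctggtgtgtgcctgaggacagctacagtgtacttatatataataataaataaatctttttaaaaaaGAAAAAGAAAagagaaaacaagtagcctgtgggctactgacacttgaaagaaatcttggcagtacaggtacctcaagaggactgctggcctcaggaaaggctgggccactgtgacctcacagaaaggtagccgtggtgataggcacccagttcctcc

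The first 4 sequences lie at chr5:120907526-120907775 (minus strand), chr19:34583279-34583528 (plus), chr19:34640639-34640888 (plus) and chr8:61927837-61928086 (plus), and each holds 2 matches, which overlap in Oas1a. The last 2, at chr1:170927584-170927833 (minus) and chr17:35176053-35176302 (minus), hold 1 match each, both times GAAAAAGAAA in a run rich in A. The match nearest the start ended 5 bases before it in Oas1a, 113 in Ifit3, 76 in Ifit1 and 10 in Ddx60, and 183 and 148 bases before it in Fcrla and Aif1. Counting a gene where any of its promoters in the table matched, the motif was found for 44 of 505 lower genes (8.71%), 12 of 601 higher genes, 218 of 5864 genes not called (3.72%) and 3.99% of all 27025 genes in the table. The Ets-Irf composite element (GGAANNGAAA) was in 4.55% of lower, 2.50% of higher and 3.21% of other genes, the PU.1 site core (GAGGAAGT) in 5.74%, 6.49% and 3.85%, the AP-1 site (TGANTCA) in 7.72%, 6.66% and 5.63%, and the κB site (GGGANNNTCC) in 7.33%, 7.32% and 6.26%. The Ets-Irf element and the response element share letters, so that one stretch can match both. A match is a description of letters, and binding was not measured.

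Oas1a, which makes the second messenger that activates RNase L, was at 3.30 and 3.24 in CD8α+ cells and 8.20 and 8.49 in CD8α- cells, a fall of at least 10.2-fold (adjusted p = 0.000330). Ifit1, which binds viral RNA caps, was at 2.11 and 2.10 against 6.44 and 7.43 (at least 3.83-fold), and the helicase-like gene Ddx60 at 2.98 and 2.85 against 7.80 and 6.73, at least 4.81-fold lower. All 3 were below 5 on both CD8α+ arrays. Other members were expressed in both subsets at different levels. Ifi27, a mitochondrial and nuclear membrane protein gene, was at 7.56 and 7.82 against 11.18 and 11.32 (-3.56, SE 0.29), and Ifitm3, which blocks virus entry, at 10.57 and 10.71 against 13.10 and 12.74 (-2.28, SE 0.29). Xaf1 differed by -1.47 (SE 0.19) and Cmpk2 by -2.37 (SE 0.28). The regulators of the response were among the 11 genes not called. Irf7 was at 6.72 and 7.77 against 7.43 and 7.03, Irf9 at 9.26 and 9.55 against 9.61 and 9.39, and Stat2 at 6.30 and 7.13 against 7.35 and 7.49, with overlapping groups for the first 2. Fcrla and Aif1, whose promoters are printed for contrast, went the other way. Fcrla, an intracellular Fc receptor-like protein gene best known from B cells, was at 10.29 and 10.08 against 5.33 and 5.53 (4.76, SE 0.36), and the actin-binding protein gene Aif1 at 11.36 and 11.42 against 7.72 and 7.71 (3.68, SE 0.21).

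**Figure D3:**
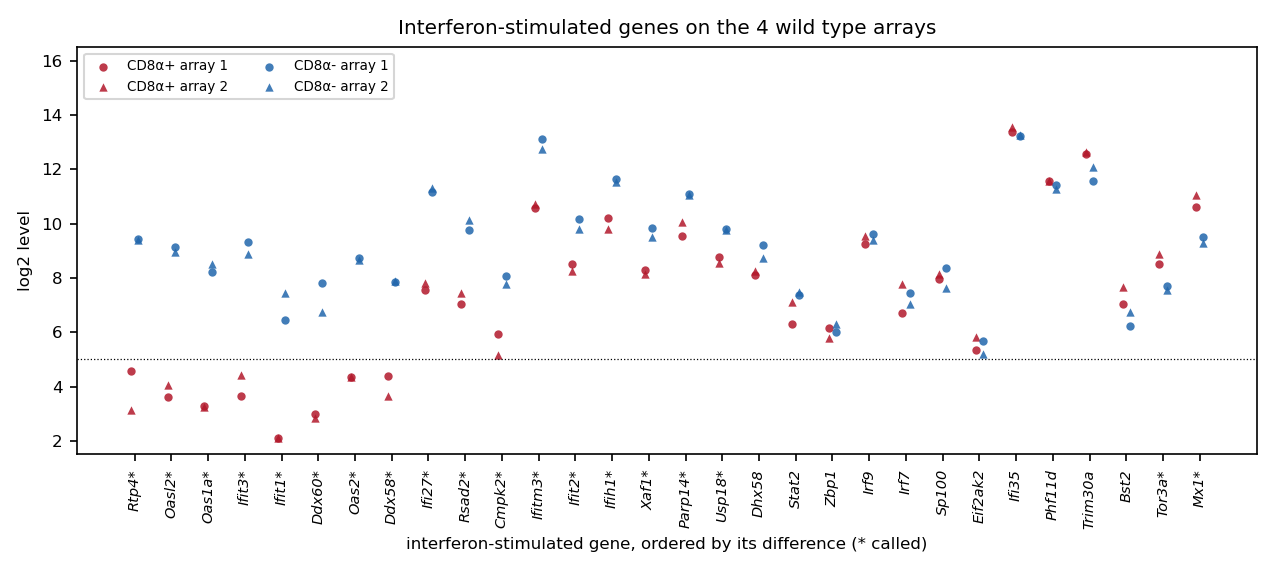
Log2 level of the 30 tested interferon-stimulated genes (horizontal axis, ordered by difference) on the 4 wild type arrays; red marks are CD8α+ and blue marks CD8α- arrays, the dotted line is level 5 and asterisks mark called genes. From Rtp4 to Ddx58 both CD8α+ arrays lie below the dotted line while the CD8α- arrays lie above it, and at the right end Tor3a and Mx1 run the other way. By the filter, a tested gene below 5 on both CD8α+ arrays has both CD8α- arrays at 5 or above.

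Sensors of foreign nucleic acid in the cytosol were unequal in the same direction where they differed. Of 22 tested, 0 were higher and 4 lower (18.2%, against 7.64% over all genes), 3 of them held. Ddx58, which encodes the RNA sensor RIG-I, was at 4.38 and 3.66 in CD8α+ cells and 7.87 and 7.88 in CD8α- cells, a fall of at least 7.31-fold (adjusted p = 0.000828). Ifih1, which encodes the RNA sensor MDA5, was at 10.19 and 9.79 against 11.65 and 11.54 (-1.61, SE 0.22), and Sting1, the adaptor of DNA sensing, at 10.00 and 9.55 against 11.42 and 11.54 (-1.71, SE 0.22). Both RNA sensors are also in the interferon-stimulated list. The adaptor gene Mavs (9.94 and 10.00 against 9.86 and 9.89) and the DNA sensor genes Cgas (9.56 and 8.75 against 9.24 and 9.37) and Aim2 (8.02 and 7.91 against 8.05 and 7.97) were not called. Nod1, a sensor of bacterial cell wall fragments, was at 7.30 and 6.61 against 9.77 and 9.63 (-2.75, SE 0.26). Of the 10 interferon-γ-inducible GTPases, which attack vacuoles that hold pathogens, 1 was higher and 6 were lower, 3 to 4 of them in each fit that left out 1 wild type array. Iigp1 was at 8.06 and 8.15 against 5.68 and 5.39 (2.57, SE 0.18), opposite to Gbp7 (-2.18, SE 0.30), Gbp8 (-1.47, SE 0.19) and Ifi47 (-1.47, SE 0.20).

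Paired and inhibitory receptors, which set the threshold of myeloid activation through tyrosine-based motifs and shared adaptors, were mostly lower in CD8α+ cells. Of 22 tested, 1 was higher and 15 lower, 10 of these held, with a median of -1.96. In 3 of the 22 both arrays of 1 subset were below 5, so the filter fixed their direction. Cd72, a lectin-like inhibitory receptor gene, was at 6.41 and 5.26 against 10.19 and 9.95 (-4.23, SE 0.43, adjusted p = 0.000999). Lair1, a collagen-binding inhibitory receptor gene, was at 6.29 and 6.29 against 9.90 and 9.74 (-3.54, SE 0.41), and the sialic acid-binding receptor gene Siglecg at 7.55 and 7.08 against 10.56 and 10.23 (-3.07, SE 0.30). The Cd300 family of lipid-binding receptors had 5 called members, all lower. Cd300lf was at 7.98 and 7.30 against 11.45 and 11.49 (-3.83, SE 0.34), Cd300a at 9.18 and 8.88 against 10.89 and 11.22 (-2.03, SE 0.22), and Cd300lb was at least 4.53-fold lower and Cd300ld at least 1.48-fold. Members of such families are similar in sequence, and cross-hybridization between them was not tested. Pilrb1, an activating receptor gene, was at least 7.33-fold lower. Fcer1g, which encodes the signalling chain shared by Fc receptors, was at 9.01 and 8.25 against 11.62 and 11.30 (-2.83, SE 0.31). The exception was Treml4, a receptor that binds dead cells, at 12.26 ± 0.37 in CD8α+ and 9.89 ± 0.17 in CD8α- cells (SD, n = 2) (difference 2.37, SE 0.23). Cd72, Siglecg and Cd22, which are in the list, are also known from B cells. Of 12 tested B and plasma cell markers 1 was higher, Fcrla (4.76, held), and 3 lower, none of the 3 held. The lower ones were Cd22 itself (8.14 and 7.76 against 11.99 and 11.72), Cd79b (7.47 and 5.96 against 9.27 and 8.59) and Bank1 (6.67 and 5.87 against 8.13 and 8.00). Ms4a1 (difference 0.14) and Ighm (-0.23) were not called. Of 5 tested red pulp macrophage markers 0 were higher and 2 lower, Adgre1 at 7.28 and 7.01 against 11.32 and 11.50 and C1qb at 8.25 and 7.95 against 9.44 and 9.71. The call of C1qb was lost without any 1 of the 4 wild type arrays (adjusted p from 0.0534 to 0.105). Vcam1 (11.64 and 12.36 against 10.60 and 11.18), Spic (difference 0.34) and Slc40a1 (-0.21) were not called, and Cd163, Timd4 and Axl were below 5 on all 4 arrays. The part of B cell or macrophage RNA in these receptors was not tested.

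C-type lectins, which bind sugars on microbes and dead cells, were tested for 16 of 33 genes, with 2 higher and 8 lower (5 to 7 lower without 1 wild type array). Ly75, the endocytic receptor DEC-205, was at 10.12 and 9.94 against 8.11 and 8.08 (1.94, SE 0.29), and the collagen receptor gene Mrc2 at least 1.87-fold lower. Among receptors for dead cells and lipoproteins, Scarb1 was at 11.49 and 11.54 against 9.74 and 10.17 (1.55, SE 0.20), whereas Lrp1, which internalises many ligands, was below 5 in CD8α+ cells (3.45 and 3.44 against 5.32 and 5.65). Fcgr2b, the inhibitory IgG receptor gene, was at 10.69 and 10.97 against 8.62 and 8.89 (2.08, SE 0.26). Of 13 genes of the list of costimulatory and checkpoint ligands, 4 were higher (30.8%, against 8.98% over all genes) and 3 lower (23.1%, against 7.64%). Pvr, which binds Cd226 and Tigit, was at 9.28 and 10.32 against 6.16 and 6.63 (3.41, SE 0.35), and Btla, an inhibitory receptor gene, at 13.92 and 14.18 against 11.89 and 11.72 (2.25, SE 0.22). The lower genes were Cd274 (-2.36), which was held, and Pdcd1lg2 (-3.53) and Icosl (-1.29), which were not.

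Of 38 lineage transcription factors tested, 4 were higher (10.5%, against 8.98% over all genes) and 6 lower (15.8%, against 7.64%). Of these 0 and 4 were held. Tbx21, which encodes T-bet, was at 3.18 and 3.31 against 8.78 and 8.88, at least 14.2-fold lower. Ikzf3, which encodes the zinc finger factor Aiolos, was at 4.54 and 4.52 against 7.27 and 6.32, at least 3.47-fold lower. Bhlhe40, a repressor linked to the circadian clock, was at 8.36 and 8.53 against 11.14 and 11.24 (-2.74, SE 0.22), and Irf4 at 7.75 and 7.26 against 10.13 and 9.90 (-2.51, SE 0.22). Irf8 was abundant in both subsets and higher in CD8α+ cells, at 15.00 and 15.13 against 10.80 and 11.75 (3.79, SE 0.56, adjusted p = 0.00490), but was not called without CD8α- replicate 1 (3.32, adjusted p = 0.0516). Batf3 (11.46 and 11.78 against 11.22 and 11.03) and Id2 (14.79 and 14.78 against 14.23 and 14.46) were not called, and the 95% intervals of their differences were 0.044 to 0.93 and -0.026 to 0.91.

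Growth factor and cytokine receptors were tested for 26 of 34 genes, with 2 higher and 4 lower (1 to 4 lower without 1 wild type array). The share called higher (7.7%) was near the 8.98% over all genes, and the share called lower was 15.4%, against 7.64%. On each side 1 call was held. Il15ra, which presents the cytokine IL-15 to neighbouring cells, was at least 8.15-fold higher in CD8α+ cells (7.38 and 8.67 against 4.64 and 4.72), and Il15 itself was at 9.31 and 9.94 against 6.65 and 7.16 (2.72, SE 0.34). Csf1r, the receptor for the macrophage growth factor, was lower, at 9.98 and 10.07 against 11.79 and 12.17 (-1.95, SE 0.21). Of 18 chemokine and migration receptors 6 were higher (2 to 4 without 1 wild type array) and 3 lower. With all arrays that was 33.3% and 16.7%, against 8.98% and 7.64% over all genes. Ccrl2, a receptor that binds chemerin, was at least 4.73-fold lower (3.65 and 3.62 against 7.17 and 7.32), and the nucleotide receptor gene P2ry6 was at 10.91 and 11.24 against 9.47 and 9.68. Cxcl16, a membrane-bound chemokine gene, was at 10.48 and 11.02 against 8.91 and 8.67 (1.95, SE 0.26). Of 19 Toll-like receptors and their adaptors 4 were higher (21.1%, against 8.98% over all genes) and 3 lower (15.8%, against 7.64%), 2 held on each side. Tlr3, the receptor for double-stranded RNA, was at 12.39 and 12.35 against 7.85 and 8.16 (4.36, SE 0.37). Tlr1, which senses bacterial lipopeptides, was lower, at 9.33 and 8.94 against 12.48 and 12.28 (-3.24, SE 0.24). Tlr7, which senses single-stranded RNA, was at least 13.4-fold lower, although its second probe set differed by -1.94. The adaptor genes Myd88 (difference 0.09) and Traf6 (0.01) were not called. Tirap, which links Tlr2 and Tlr4 to Myd88, was at 8.53 and 8.18 against 6.05 and 6.83 (1.91, SE 0.29).

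Adhesion and guidance molecules split between the subsets. Of 14 integrin genes 5 were higher (3 to 5 without 1 wild type array) and 1 lower. With all arrays that was 35.7% higher and 7.1% lower, against 8.98% and 7.64% over all genes. Itga1, a collagen-binding α chain gene, was at least 2.31-fold higher (6.55 and 5.87 against 3.02 and 3.02). Itgae, the α chain that binds E-cadherin, was at 10.66 and 11.38 against 5.38 and 5.31 (5.67, SE 0.32). Of 22 immunoglobulin and cadherin family adhesion genes 5 were higher, 4 of them held, and 7 lower (2 to 3 without 1 wild type array). Cadm3, a relative of Cadm1, ran opposite to it, with 4.74 and 4.73 against 8.80 and 8.63, at least 13.1-fold lower, although its second probe set differed by -1.22. The cadherin gene Cdh17 was at least 8.23-fold lower. Slamf8 was at 11.69 and 12.11 against 10.41 and 10.29 (1.55, SE 0.22). Of 12 semaphorin, plexin and ephrin genes, which guide cell movement, 4 were higher (3 held) and 6 lower (3 to 6 without 1 wild type array). The class 4 semaphorins Sema4f (3.44, SE 0.44), Sema4c (2.61, SE 0.26) and Sema4a (2.36, SE 0.23) were higher. Sema4d, of the same class, was lower (-1.83), as was Sema7a (-2.33), and neither call was held. The plexin receptors Plxnd1 (-3.20, SE 0.26) and Plxnb2 (-2.10, SE 0.27) were lower. Sema4f was at 11.04 and 10.55 against 7.28 and 7.43, and Plxnd1 at 6.09 and 6.35 against 9.12 and 9.72.

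Rab GTPases mark and route vesicles, and of 34 tested 9 were higher and 0 lower in CD8α+ cells, with a median of 0.38; without 1 wild type array 4 to 5 were called. With all arrays 26.5% of the Rab list was higher, against 8.98% over all genes. Rab32, which acts at lysosome-related organelles, was at 11.91 and 11.80 against 9.22 and 9.35 (2.57, SE 0.18, adjusted p = 0.000250). Rab39 was at 9.20 and 9.29 against 7.10 and 6.61 (2.39, SE 0.25), and Rab11a, of recycling endosomes, at 12.54 and 12.45 against 11.23 and 10.93 (1.41, SE 0.19). Rab7b, of late endosomes, was at 11.24 and 11.84 against 5.44 and 6.25 (5.69, SE 0.69). Of 41 SNARE and endosomal sorting genes 5 were higher (2 to 4 without 1 wild type array) and 2 lower. As shares of that list, 12.2% were higher and 4.9% lower, against 8.98% and 7.64% over all genes. Stx3, a membrane fusion gene, was at 10.24 and 10.07 against 7.29 and 7.55 (2.74, SE 0.18). Igf2r, which sorts enzymes to lysosomes, was at least 8.12-fold higher (7.78 and 8.26 against 2.04 and 2.57). The lower genes were Vamp5 (8.03 and 7.99 against 9.37 and 9.33, difference -1.34), which was held, and the sorting receptor gene Sorl1 (-1.23), which was not.

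Lysosomal contents differed gene by gene. Cst3, which encodes the protease inhibitor cystatin C, had one of the brightest probe sets and stood at 15.33 and 15.39 in CD8α+ cells and 13.23 and 13.31 in CD8α- cells (2.09, SE 0.17, adjusted p = 0.000475). The granzyme B inhibitor gene Serpinb9 was at 12.24 and 12.63 against 9.62 and 9.80 (2.73, SE 0.35). Psap, which encodes the sphingolipid activator precursor, was at 14.20 and 14.41 against 12.27 and 12.03 (2.16, SE 0.21), the β-glucuronidase gene Gusb at 13.03 and 13.63 against 9.48 and 9.73 (3.72, SE 0.36), and the cholesterol carrier gene Npc2 at 13.41 and 13.48 against 12.17 and 12.25 (1.23, SE 0.17). Lower genes were the acid phosphatase gene Acp5, at 7.66 and 8.25 against 11.33 and 10.98 (-3.20, SE 0.30), and the protective protein gene Ctsa (-1.83, SE 0.22). Of 9 components of the NADPH oxidase, which makes superoxide in phagosomes, 0 were higher and 3 lower (33.3%, against 7.64% over all genes). Cybb, the catalytic subunit gene, was at 9.78 and 9.13 against 11.89 and 11.82 (-2.39, SE 0.28), and Hvcn1, the proton channel gene that sustains it, at 7.62 and 8.43 against 10.62 and 10.39 (-2.48, SE 0.32).

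Most genes of the protein quality lists were not called, and none of their calls was held. Of 31 genes of the unfolded protein response and folding in the endoplasmic reticulum, 7 were higher and 0 lower, with a median of 0.62, but without 1 wild type array 0 to 2 were called. The disulfide isomerase gene Pdia3, also part of peptide loading, was at 11.61 and 11.49 against 9.68 and 9.58 (1.92, SE 0.32, adjusted p = 0.00765), and its adjusted p was 0.0568 and 0.0621 when replicate 1 or 2 of the CD8α- cells was left out, and 0.0530 and 0.0517 when either CD8α+ array was. Of 40 proteasome subunits 4 were higher and 0 lower, with a median of 0.36, and 0 to 3 were called without 1 wild type array. Of 32 oxidative phosphorylation subunits 1 was called higher, with a median of 0.26. Each of these 3 medians lay above the 0.015 of all genes. The share called higher was 22.6% in the folding list, against 8.98% over all genes. In the proteasome list (10.0%) it was near that background, and in oxidative phosphorylation (3.1%) below it.

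**Figure D4:**
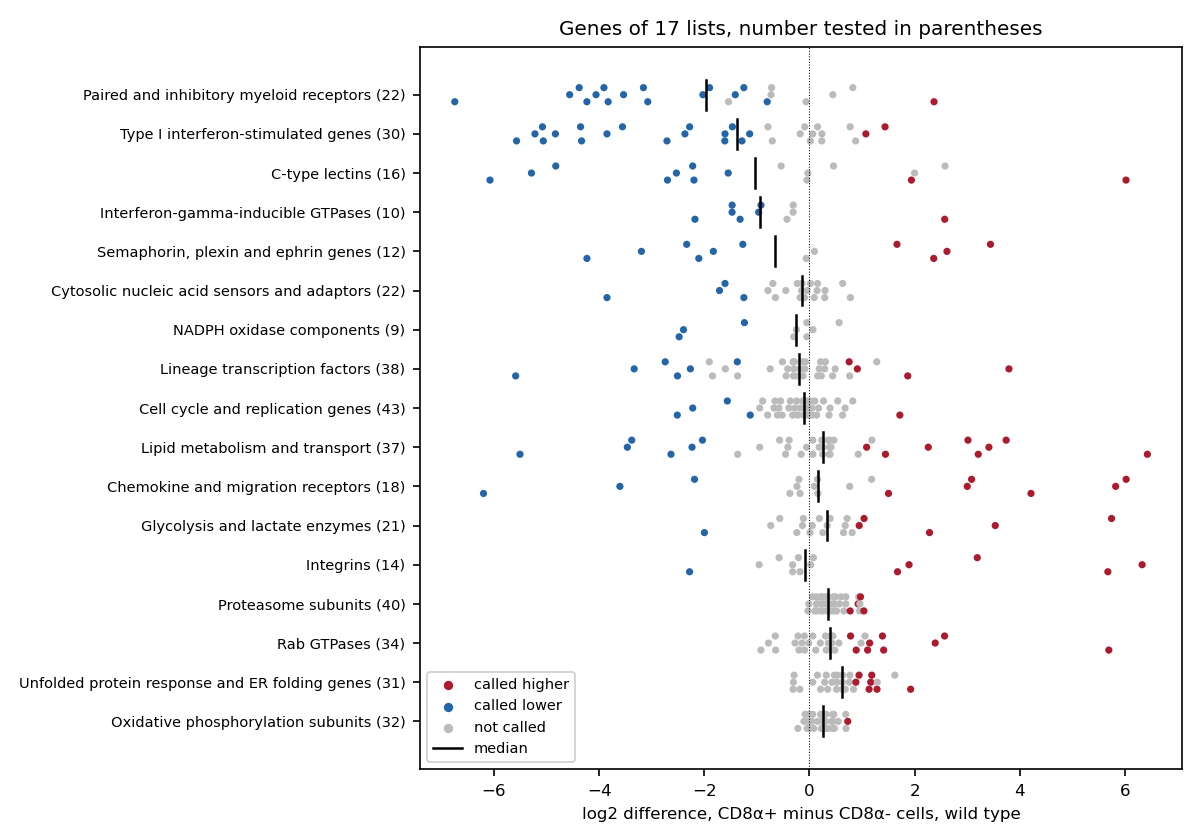
Differences (log2, CD8α+ minus CD8α- cells, horizontal axis) of the tested genes of 17 lists, 1 point a gene; red points are called higher, blue called lower and grey not called, and the black bar is the list median. Receptor and interferon lists at the top extend to the left, and the Rab, proteasome and folding lists hold red and grey points only.

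Metabolic genes were called in both directions. Of 37 lipid genes 8 were higher (21.6%, against 8.98% over all genes) and 6 lower (16.2%, against 7.64%), 5 held on each side. Plin2, which coats lipid droplets, was at 11.58 and 12.12 against 7.57 and 8.66 (3.74, SE 0.38, adjusted p = 0.000968), and the fatty acid elongase gene Elovl6 was at least 2.63-fold and the acyltransferase gene Mboat1 at least 1.96-fold higher. Fabp5, a fatty acid carrier gene, was at 11.23 and 11.12 against 13.82 and 13.79 (-2.63, SE 0.25), and Lpcat2, which remodels phospholipids, at 6.66 and 7.08 against 9.05 and 9.15 (-2.23, SE 0.30). Among 21 glycolysis genes 5 were higher (3 to 4 without 1 wild type array) and 1 lower, with a median of 0.34. With all arrays that was 23.8% and 4.8%, against 8.98% and 7.64% over all genes. The held genes were Hk3, the aldolase gene Aldoc, at least 6.44-fold higher (7.58 and 7.79 against 3.88 and 4.43), and the phosphofructokinase gene Pfkp (11.20 and 11.20 against 9.04 and 8.80). Pgk1 (difference 1.04) and Pgam1 (0.95), later enzymes of the pathway, were higher but not held. The glucose transporter gene Slc2a3 went the other way, at 8.84 and 8.26 against 11.64 and 11.69 (-3.12, SE 0.32). Slc11a1, the phagosomal metal transporter Nramp1, was at 10.51 ± 0.38 in CD8α+ and 7.11 ± 0.15 in CD8α- cells (SD, n = 2) (difference 3.40, SE 0.24), and the mitochondrial sodium-calcium exchanger gene Slc8b1 at 8.51 and 10.14 against 4.79 and 5.87 (3.99, SE 0.58).

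Of 3 tested prostaglandin E receptors 1 was higher and 1 lower. Ptger2, which raises cyclic AMP, was at least 9.96-fold higher in CD8α+ cells (8.32 and 8.31 against 3.36 and 3.21), and Ptger3, which lowers it, was at least 67.1-fold lower (4.99 and 4.92 against 11.27 and 10.87). Ptger4, which also raises cyclic AMP, was not called (11.96 and 12.14 against 11.05 and 11.68, difference 0.68). Pla2g7, which inactivates platelet-activating factor, was at 5.27 and 6.08 against 8.08 and 8.59 (-2.66, SE 0.35). Of 26 ion channel genes 4 were higher (15.4%, against 8.98% over all genes) and 5 lower (19.2%, against 7.64%), with 2 to 3 on each side without 1 wild type array. Ryr3, a calcium channel gene, was lower, at 5.40 and 5.41 against 12.60 and 12.81 (-7.30, SE 0.18), although its second probe set differed by -3.03. The calcium channel genes Itpr3 (-1.51) and Ryr1 (-1.27) were lower too, but not held. Among the higher genes were 2 channels that let calcium in, Trpm2 at 10.44 and 11.18 against 8.60 and 8.39 (2.31, SE 0.28) and the ATP-gated P2rx7 at 7.82 and 8.26 against 6.29 and 6.28 (1.75, SE 0.23).

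Signalling pathways of development were represented by a few receptors. Notch4 was at 11.03 and 10.36 against 5.61 and 5.57 (5.11, SE 0.27, adjusted p = 0.000113), while Notch1 (difference 0.48) and Notch2 (-0.12) were not called. Of 18 Wnt genes 5 were higher (3 to 4 without 1 wild type array) and 1 lower. With all arrays that was 27.8% and 5.6%, against 8.98% and 7.64% over all genes. The receptors Fzd1 (10.85 and 11.33 against 4.01 and 5.36) and Fzd5 (6.99 and 7.02 against 5.32 and 5.48) and the secreted modulator Dkk3 (9.11 and 9.07 against 2.92 and 2.89) were held. Acvrl1, a type I receptor gene for bone morphogenetic proteins, was at least 10.6-fold higher (8.05 and 8.75 against 4.39 and 4.18). Of 33 mitogen-activated kinase genes 8 were higher (2 to 4 without 1 wild type array) and 5 lower (3 to 4). Rasa3, which switches Ras off, was at 9.92 and 10.36 against 8.15 and 7.79 (2.17, SE 0.22), and Rasgrp1, which switches it on, at 5.32 and 5.30 against 8.15 and 7.79 (-2.66, SE 0.25). Tiam1, an activator of Rac, was at 9.81 and 9.72 against 7.19 and 7.92 (2.21, SE 0.28), and Tnfaip2 at 10.84 and 10.44 against 7.48 and 8.13 (2.83, SE 0.35). Casp6, an executioner caspase gene, was at 10.67 and 10.84 against 8.56 and 8.64 (2.15, SE 0.17).

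Proliferation genes were bright in both subsets. Of 43 cell cycle and replication genes 1 was higher and 4 lower (2 to 3 lower without 1 wild type array). With all arrays this was 2.3% higher and 9.3% lower, against 8.98% and 7.64% over all genes. Mki67 was at 12.75 and 12.72 against 12.89 and 12.78, and Top2a at 11.71 and 11.79 against 11.93 and 11.67, and neither was called. The regulators of the start of S phase E2f2, at 7.41 and 6.72 against 9.23 and 9.34 (-2.22, SE 0.25), and Ccnd1, at 12.13 and 11.98 against 13.48 and 13.74 (-1.56, SE 0.23), were lower in CD8α+ cells. Of the 200 genes with the brightest probe sets, all with a mean level of 13.27 or above, 3 were higher, 6 lower and 191 not called, and 175 differed by less than 0.5. Brightness does not rank different genes by abundance, and whether differences are compressed at such high signals was not tested. Besides Cst3, the higher genes were Cd1d1, which presents lipids (1.09, but 1.03 with an adjusted p of 0.0501 without CD8α- replicate 1), and Mpeg1, which encodes the pore-forming protein perforin-2, at 14.69 and 14.89 against 12.03 and 12.42 (2.56, SE 0.26).

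The RAG2-/- arrays, which share no sample with the wild type ones, gave the same contrast a second time. There 836 genes (9.86%) were higher and 819 (9.66%) lower in CD8α+ cells. Of the 762 genes higher in wild type, 746 (97.9%) differed in the same direction in the knockout and 548 were called higher there, and of the 648 lower genes 638 (98.5%) did and 516 were called lower. Among the genes not called in wild type 73.8% went the same way. Taken one replicate number at a time, 742 and 620 of the called genes kept their direction between the number 1 knockout arrays, and 739 and 639 between the number 2 arrays, which went against the sex label. Across genes, which are not independent replicates, the differences had r = 0.877 and rho = 0.765. The 2 fits share 1 estimate of each gene's spread. Only 3 genes were called in opposite directions, and they are named because of these values. Fcgr2b was higher in wild type CD8α+ cells (2.08) and lower in knockout ones (10.96 and 11.18 against 12.30 and 11.70, difference -0.93). Tlr4, the receptor for bacterial lipopolysaccharide, differed by 0.86 and -0.95, and the galactosyltransferase gene B4galt4 by 0.97 and -0.93. Without any 1 of the 4 wild type arrays the wild type call of Tlr4 (adjusted p from 0.117 to 0.187) and of B4galt4 (0.0859 to 0.172) was lost, and that of Fcgr2b was held. The difference between the genotypes missed the threshold for all 3 (limma interaction, adjusted p = 0.0709 for Fcgr2b, 0.220 for Tlr4 and 0.225 for B4galt4). The interaction called 3 genes (0.0354%), and 0 with any 1 array left out.

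**Figure D5:**
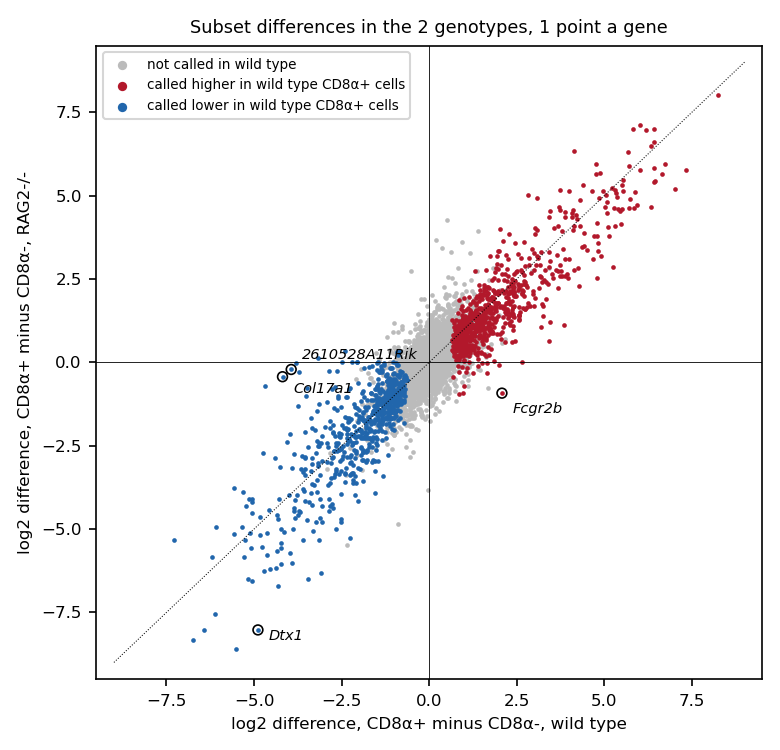
Difference between CD8α+ and CD8α- cells (log2) in wild type (horizontal axis) and RAG2-/- mice (vertical axis), 1 point a gene, coloured by the wild type call; the dotted line marks equal differences and circles mark the 3 genes called by the interaction and Fcgr2b. Most called genes lie near the dotted line, Fcgr2b lies below the horizontal axis, and Col17a1 and 2610528A11Rik lie near a knockout difference of 0.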

How the data were processed

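The authors deposited 1 log2 expression value for each probe set and array. Per the submitters' processing notes, the wild type arrays were made with GCRMA and affy and the knockout arrays with GCRMA. Tool versions, and whether all arrays were normalized jointly, are not given in the sources read. The knockout arrays alone share 1 lowest value. Scanner files were not used.

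Of 45101 probe sets, 34945 carried 1 gene name in the platform annotation, 932 several and 9160 none, and 64 were controls. The 14483 named probe sets at log2 5 or above on at least 2 of the 4 wild type arrays were fitted with limma 3.58.1 in R 4.3.3 (4 group means over all 8 arrays, eBayes), with Benjamini-Hochberg adjustment over them. A gene was read from its brightest 1-name probe set. The fit was tested on simulated data. Named genes are the 30 largest held differences on each side, list members, label checks, and a few named for values given beside them. The comparison and the lists were chosen with earlier results of these data known. Neighbouring genes were ordered by the RefSeq table (GRCm38.p6). The replicate numbers are not known to mark shared mice, and replicate differences of the subsets had r = 0.044, so the main fit has no block. Alternatives were other normalizations, filters, probe set rules, a block and left-out arrays. The number of arrays limits the precision.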

Additional observations from a re-analysis of the deposited data

Results flagged for a closer look

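The difference between CD8α+ and CD8α- cells was itself unequal between the genotypes for 3 genes (limma interaction, wild type minus knockout difference). Dtx1, a Notch target, was lower in CD8α+ cells in both genotypes, by -4.89 in wild type and -8.03 in the knockout, an interaction of 3.14 (adjusted p = 0.0421). Col17a1, which encodes a hemidesmosome collagen, was at 2.54 and 2.90 on the wild type CD8α+ arrays and 6.96 and 6.87 on the CD8α- arrays, while the knockout difference was -0.43, an interaction of -3.76 (adjusted p = 0.0426). The uncharacterised gene 2610528A11Rik was at 4.12 and 4.05 against 7.88 and 8.16, with a knockout difference of -0.22, an interaction of -3.72 (adjusted p = 0.0205). Both knockout arrays of number 2 went against the sex label, whether the genotypes were normalized jointly is not given in the sources used here, and the part of either in these 3 results was not tested.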

How the results depend on the processing

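By limma 762 genes were higher and 648 lower in wild type CD8α+ cells. With 2 arrays a group, leaving out 1 of the 8 arrays gave 328 to 751 higher and 304 to 651 lower genes, and 0 interaction calls. Without a filter on dim probe sets 467 and 377 were called, the larger number of tests being part of that setting, and 163 and 134 where the 2 brightest probe sets of a gene both had to be called (3459 genes have 2). The other settings stayed within 1.5 times of the main counts. There were 673 and 606 for the wild type arrays alone, 764 and 771 after quantile normalization, and 696 and 721 after centring. With the replicate number as a block there were 706 and 605. Leaving out both knockout arrays of number 2 was added after the data were seen. It left 1 array a knockout group, so for these counts it was the same fit as the wild type arrays alone. For the 3 interaction calls, there were 11 after quantile normalization, 14 with no filter, 6 with a filter at 7, 7 with values below 5 set to 5, 8 with 1 probe set a gene, 5 with limma-trend, and 0 with the block, with 2 probe sets a gene or without both knockout arrays of number 2; the cause was not tested. Of the 338 called genes the naming rule covers, none reversed its direction in a setting that was run. The settings reuse the same arrays, so a reversal was unlikely in advance. With no filter the result was weaker for 127 of the 338.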

Other observations

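Called genes that neighbour each other were looked for along the chromosomes, taking only tested genes in RefSeq order and counting runs of at least 4 called in 1 direction. The genes are named because of these runs. There were 3 such runs of higher and 7 of lower genes. The longest held 7 lower genes on chromosome 11, Cd300a, Cd300lb, Cd300ld, Cd300c2, Rab37, Cd300lf and Slc9a3r1, of which 5 belong to the Cd300 receptor family. Other runs of lower genes were Ifit2, Ifit3, Ifit1bl1 and Ifit1 on chromosome 19, Dtx1, Oas2, Oas1c and Oas1a on chromosome 5, and Ifitm2, Ifitm1, Ifitm3 and Ifitm6 on chromosome 7. The higher runs had 4 genes each, among them Ppef2, Naaa, Sdad1 and Cxcl9 on chromosome 5. Families of similar genes can share hybridization signal, and this was not tested.

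Among the 200 genes with the brightest probe sets, 6 were lower in CD8α+ cells, and they are named because of these values. Mdh2, a mitochondrial malate dehydrogenase gene, was at 13.92 and 13.72 against 15.35 and 15.27 (-1.49, SE 0.24), with -1.41 on its second probe set. Gsn, which severs actin filaments, differed by -1.47 (SE 0.23), Limd2 by -1.19 (SE 0.21), Shisa5 by -0.91 (SE 0.17), the adaptor gene Tyrobp by -0.80 (SE 0.18) and Rgs2, a brake on G protein signalling, by -0.80. None of the 6 calls held in each fit that left out 1 wild type array: CD8α- replicate 1 alone undid that of Gsn (adjusted p = 0.0547), and with it or other arrays left out the adjusted p reached 0.0580 for Mdh2, 0.0729 for Limd2, 0.0800 for Shisa5, 0.133 for Tyrobp and 0.212 for Rgs2.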
